A study of Mus musculus with 2 samples.

Results

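Tumor endothelial cells were taken from single-cell RNA sequencing (scRNA-seq) of mouse pancreatic tumors as the cells whose RNA held the vessel markers Pecam1, Cdh5, Kdr, Flt1 and Plvap. A cell was a member when these 5 genes together gave at least 5 unique molecular identifiers (UMIs, counts of distinct captured RNA molecules) and at least 3 of the 5 were detected. A member also had at least 1000 UMIs, at least 200 genes, at most 5% of UMIs from mitochondrial genes and under 0.1% of UMIs from the complement genes C1qa, C1qb and C1qc, which mark macrophages. Of 36642 cells that passed the depth and mitochondrial limits, 69 met the rule, 35 in the control library and 34 in the library taken after insufficient irreversible electroporation (iIRE). Since the cells were selected on these marker values, the levels of the 5 genes, and of every other gene in these cells against the rest, are given as a description without a test.

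The tumors were grown in the pancreas of C57BL/6 mice, which were males aged 5 to 7 weeks, from implanted FC1199 cells, a mouse pancreatic cancer line. The line carries engineered alleles, and the vessels come from the host mouse. In the iIRE group, 99 pulses, each 100 μs long and at 1000 V, were given at 1 Hz to tumors of 7 to 9 mm through needles 5 mm apart, so that only a portion of the tumor was ablated, and the residual tumor was taken 3 days later. The series' own description and the study's methods give the control mice sham surgery, while the sequenced control tumors are elsewhere called untreated. No source used here states which barcode ending belongs to which library. It was inferred from the library numbers in the labels (1 for control, 2 for iIRE), and an exchange would turn every direction between the libraries given below. Each group had 1 library made with the 10x Genomics 5′ kit, and the number of tumors pooled in it is not given in the sources used here. With 1 library per group, a difference between control and iIRE compares 2 libraries and has no replicate check, and the intervals below are exact and cover counting error only.

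Endothelial cells line the inside of blood and lymph vessels. They sense vascular endothelial growth factor (VEGF) through the receptors encoded by Kdr and Flt1, hold to each other through the adherens junction protein VE-cadherin (Cdh5) and the adhesion molecule PECAM-1 (Pecam1), and form the diaphragms of fenestrae and caveolae from the protein encoded by Plvap. In growing vessels, tip cells lead a sprout and express genes such as Esm1, Apln, Angpt2 and Dll4, while the vessel wall behind them takes on arterial, capillary or venous features. Endothelial gene expression depends on ETS factors such as ERG and FLI1, and on SOX factors such as SOX18.

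Promoter sequences are shown for both VEGF receptor genes and for 2 genes on which the results below turn, Egfl7, which encodes a matrix protein secreted by endothelial cells, and Esm1, which encodes the tip cell proteoglycan endocan. Each sequence is the 250 bases before the gene start, 5′ to 3′ on the strand of the gene, from RefSeq on GRCm38.p6. Capitals mark matches on either strand to the ETS forms AGGAAG and CGGAAG and to AACAGGAA, a form joining a forkhead and an ETS site, whose last bases can overlap AGGAAG. The Kdr window is chr5:75978456-75978705 on the minus strand, and the Flt1 window is chr5:147726012-147726261, also on the minus strand. The Egfl7 window, at the first of 3 listed starts, is chr2:26580833-26581082, and the Esm1 window is chr13:113209409-113209658, both on the plus strand.
Kdr: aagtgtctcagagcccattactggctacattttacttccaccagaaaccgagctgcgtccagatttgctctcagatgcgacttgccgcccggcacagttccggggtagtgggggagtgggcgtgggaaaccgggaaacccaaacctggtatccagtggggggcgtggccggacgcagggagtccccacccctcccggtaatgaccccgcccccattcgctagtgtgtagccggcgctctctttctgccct
Flt1: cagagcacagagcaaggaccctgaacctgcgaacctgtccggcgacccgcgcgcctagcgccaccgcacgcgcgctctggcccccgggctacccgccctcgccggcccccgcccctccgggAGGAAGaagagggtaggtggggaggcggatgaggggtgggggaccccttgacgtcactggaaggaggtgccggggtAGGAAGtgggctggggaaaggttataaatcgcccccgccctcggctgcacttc
Egfl7: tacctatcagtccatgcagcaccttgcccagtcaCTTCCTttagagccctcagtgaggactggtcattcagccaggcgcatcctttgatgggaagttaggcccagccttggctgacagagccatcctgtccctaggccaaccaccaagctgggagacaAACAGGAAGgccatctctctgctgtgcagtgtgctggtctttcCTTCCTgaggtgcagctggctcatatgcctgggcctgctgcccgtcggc
Esm1: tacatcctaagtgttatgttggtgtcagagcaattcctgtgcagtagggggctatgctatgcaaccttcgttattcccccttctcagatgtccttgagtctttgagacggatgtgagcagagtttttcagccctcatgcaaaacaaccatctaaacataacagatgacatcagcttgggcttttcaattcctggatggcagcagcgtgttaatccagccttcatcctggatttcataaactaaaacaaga
The Flt1 window held 2 AGGAAG matches, which began 129 and 53 bases before the start. The Egfl7 window held 3 AGGAAG matches and 1 AACAGGAA match, and the Kdr and Esm1 windows held none of the 3 forms. Of the Egfl7 windows not shown, the second held 1 match and the third none. Of 32851 promoter windows of this length, 29.5% held AGGAAG, 13.6% CGGAAG, 2.25% AACAGGAA and 40.1% any of them. Of 26 endothelial identity genes that the rule did not use, 15 were matched to 17 windows, of which 11 (64.7%) held at least 1 form. These matches describe the letters in the windows and were not tied to binding. No window was listed for Pecam1, Cdh5, Plvap or Angpt2.

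The 69 cells were rare and varied in depth. They made up 0.196% of the cells of the control library (95% Clopper-Pearson interval 0.137 to 0.273) and 0.181% of the iIRE library (0.125 to 0.252). On the log2 scale the iIRE share differed from the control share by -0.12 with an interval of -0.85 to 0.60, so a change in share was not detectable at this number of cells. Total UMIs per cell ran from 1076 to 57008 with a median of 8096, and the median was 9997 in control and 7130 in iIRE cells. The shares describe cells recovered from dissociated tumors, and vessels that were lost and cells that dissociated poorly cannot be told apart. The libraries shared 458 barcode sequences, and 1 endothelial cell had a barcode also seen in the other library. Doublets, droplets with more than 1 cell, were not removed. When the cells with the highest simulated doublet scores were left out, 16 control and 28 iIRE cells remained, and the log2 ratio of their shares was 0.74 with an interval of -0.19 to 1.73. The scores took 7 of the 8 control and 3 of the 8 iIRE cells with tumor RNA, described below, and 12 of 27 control and 3 of 26 iIRE cells without it.

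The 5 markers were usually seen together: 49 cells held UMIs of all 5, 12 cells of 4 and 8 cells of 3. They took a median of 0.538% of a cell's UMIs, with a lowest value of 0.00877% and a highest of 1.49%. Of cells just inside the limit, 4 had 5 or 6 marker UMIs, and 3 of these carried tumor cell RNA. Just outside it, 12 cells had 3 or 4 marker UMIs from at least 3 genes, all 12 carried tumor cell RNA, and their median was 1 of 26 endothelial identity genes. A further 1521 cells reached 5 UMIs with only 1 or 2 of the genes, and in 1484 of them Flt1 was the leading gene. Flt1 was the marker with the highest level outside the endothelial cells, at 71.6 CPM (UMIs of the gene per 1000000 UMIs of the summed cells) in the other cells against 592 CPM in the 69.

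**Figure D1:**
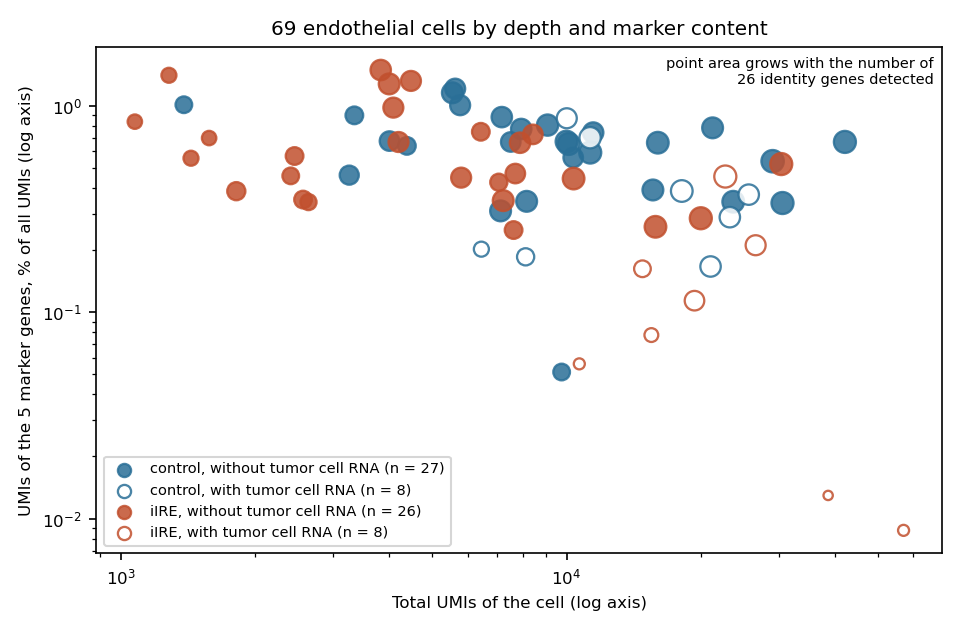
Each point is 1 of the 69 endothelial cells, by its total UMIs and the percentage of them from the 5 marker genes, both on log axes, with larger points for cells in which more of 26 identity genes were detected. Cells with tumor cell RNA (open points) lie mostly lower on the marker axis (median 0.194% against 0.652%), and the 2 deepest iIRE cells (57008 and 38618 UMIs) are the lowest of all.

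The cells were checked against 26 endothelial identity genes that took no part in the rule. In 53 of the 69 cells (not the same cells as the 53 without tumor RNA below) at least 15 of the 26 were detected, and 6 cells, all in the iIRE library, held fewer than 10. All 26 were at least 4-fold higher in the endothelial cells than in all other cells, which describes the cells rather than testing them, since 277 of 2946 genes with at least 50 UMIs (9.4%) were that much higher. Their summed level was 9099 CPM against 99.2 CPM in the other cells, and their median log2 ratio was 4.36, where that of all 2946 genes was 0.11. These log2 ratios were taken after 10 CPM was added to both sides, which understates the ratio of low genes.

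In 16 cells, 8 per library, RNA of the tumor cells was also present, meaning a UMI of Cdkn2a or at least 3 UMIs of the keratin genes Krt8 and Krt18. They held 329124 of the 822921 endothelial UMIs, 123888 in control and 205236 in iIRE, so that tumor-type RNA weighed more in the iIRE sum. In the 4 of them with fewer than 10 identity genes, all in iIRE, Cdkn2a gave 7 to 65 UMIs. At the other end, the control cells with 10013 and 11295 UMIs qualified by 1 Cdkn2a UMI without keratin UMIs, and held 20 and 23 identity genes. Deep cells meet so low a limit more easily, and the median was 18749.5 UMIs in the 16 against 7159 in the cells without tumor RNA. The 2 deepest iIRE cells had 5 marker UMIs each, with 4 and 2 identity genes and with 52 and 65 Cdkn2a UMIs, and the endothelial label does not describe most of their RNA. The other 53 cells, 27 in control and 26 in iIRE, held 493797 UMIs. They had no Cdkn2a UMI by the definition used, so this absence says nothing further of them. Col1a1, a fibrillar collagen of fibroblasts and of these tumor cells, took no part in the definition and gave 3 UMIs in the 53 cells. Y-linked genes, which host cells of male mice express, gave 146 CPM in the 53 cells, 115 CPM in host-type fibroblasts and 74.6 CPM in C1q macrophages, but 2.54 CPM in keratin tumor cells. Each comparison between the libraries is therefore given over all 69 cells and again over the 53.

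RNA of other host cells was sparse. No UMI of 8 T and NK cell genes or of 4 hemoglobin genes was found, 1 UMI of 5 neutrophil genes, and no cell held more than 2 of 8 pericyte genes. Of 13 macrophage and leukocyte genes, 24 cells held at least 1, and 2 cells, 1 per library, held 9. These 2 cells had 133 and 190 UMIs of Cd74, which encodes the invariant chain of major histocompatibility complex (MHC) class II, and they held 685 of the 714 UMIs of the MHC class II genes. A class II UMI was found in 13 cells in all.

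The leading genes of the endothelial cells were vessel genes at levels far above those of the other cells. Plvap stood at 1926 CPM (95% Poisson interval 1832 to 2023) against 5.32 CPM in the other cells, and a UMI of it was found in 98.6% of the 69. Pecam1 was at 716 CPM against 0.847, Cdh5 at 637 against 0.289 and Kdr at 416 against 0.424. Among genes the rule did not use, the largest log2 ratio over the other cells was that of Ctla2a, which encodes a protein related to the propeptide of cathepsins, at 7.03 (1859 against 4.28 CPM). Fabp4, a fatty acid binding protein of capillary endothelium, followed at 6.58 (1122 against 1.81 CPM). Next came Esm1 at 6.42, Gpihbp1, which carries lipoprotein lipase to the capillary lumen, at 6.34, and Emcn, the sialomucin endomucin, at 6.29. The adhesion molecule gene Esam (5.98), Egfl7 (5.89), the matrix gene Sparcl1 (5.85), Eng, which encodes the TGF-β family co-receptor endoglin (5.52), and the C-type lectin family gene Cd93 (5.36) were also among the 15 highest, as was Trp53i11 (5.58), a gene of the tip cell list.

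**Figure D2:**
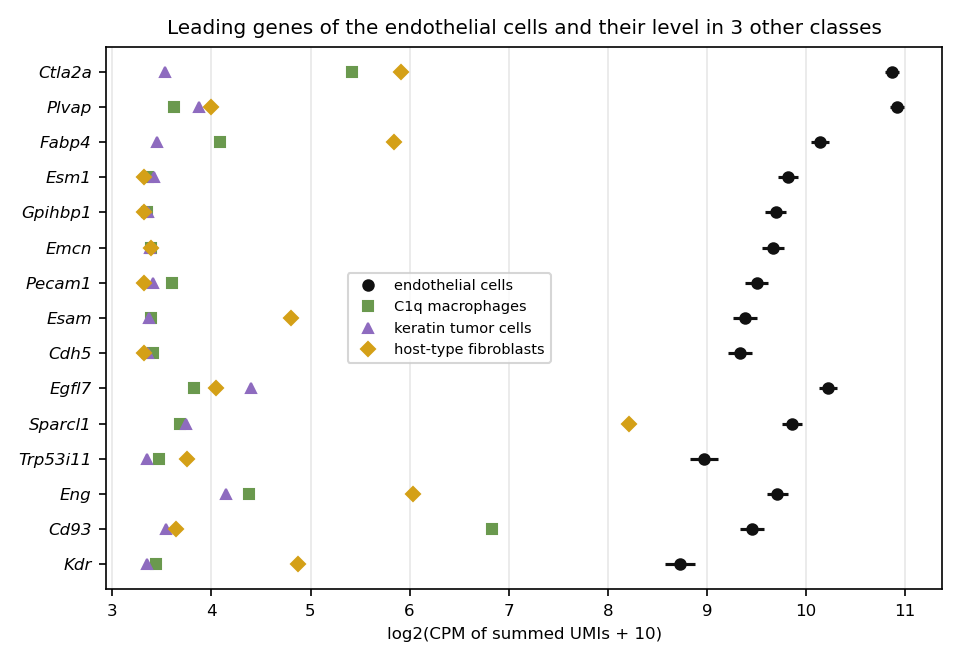
The 15 genes with the largest ratio over all other cells are plotted by log2 of their CPM after 10 was added, for the 69 endothelial cells (black, with 95% Poisson intervals) and for 3 comparison classes. All 15 lie above 8 in endothelial cells. Sparcl1 is the only one of them above 8 in a comparison class, the host-type fibroblasts.

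The share of cells with a UMI of a gene depended on depth, so it is given beside that of keratin tumor cells, whose median depth was 8047 UMIs against 8096, and after each endothelial cell was thinned to 1000 UMIs (the tumor cells were not thinned). Egfl7 was found in 92.8% of endothelial cells, 63.8% after thinning and 12.1% of keratin tumor cells. Esm1 was found in 40.6%, 26.1% and 0.668%, and Apln, which encodes the peptide apelin, in 63.8%, 24.6% and 15.2%. By library, a UMI of Esm1 was found in 54.3% of control and 26.5% of iIRE endothelial cells, and a cell without a UMI may still express the gene.

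Genes of vessel identity and control were present in most lists. Of 14 endothelial transcription factors with at least 50 UMIs, 9 were at least 4-fold higher than in the other cells, against the background of 9.4%. Sox18 stood at 365 CPM against 0.0991, Epas1, which encodes the hypoxia-inducible factor HIF-2α, at 228 against 4.11, and Erg at 173 against 0.172. Klf2, a factor induced by blood flow in endothelium, had the highest level of the list at 1361 CPM, but it was at 1184 CPM in the other cells as well. Klf2 was thus the transcription factor gene of this list with the most RNA both inside and outside the endothelial cells. For the VEGF co-receptor gene Nrp1 the levels were 242 and 43.8 CPM. Vegfa, the main VEGF ligand, was lower in endothelial cells, at 62 CPM against 271.

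Basement membrane genes took 15852 CPM of the endothelial RNA against 7526 CPM in the other cells, and 7 of 15 tested genes were at least 4-fold higher. Host-type fibroblasts, at 15830 CPM, had about the same summed level as the endothelial cells. Col4a1 and Col4a2, whose products form the collagen IV network, were at 3104 and 1752 CPM against 153 and 69.1. Lama4, the laminin α4 chain of the vessel wall, was at 420.5 CPM against 11.2. Sparc, a collagen-binding matrix protein, reached 4915 CPM, with 1793 CPM in the other cells. Fn1, which encodes fibronectin, went the other way, at 1665 CPM against 4387.

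Genes of antigen presentation and of the interferon response were also higher than in the other cells, most of which are tumor cells, but not than in every host class. The summed MHC list, class I and II together, was at 4228 CPM in the endothelial cells, 498 CPM in keratin tumor cells and 7553 CPM in C1q macrophages. The 2 cells with leukocyte RNA held 685 of the 714 endothelial UMIs of class II genes. With class II left out, the list was at 3602 CPM in control and 3069 CPM in iIRE endothelial cells. The interferon response list was at 4939 CPM, against 1717 CPM in keratin tumor cells and 4056 CPM in host-type fibroblasts. Of 11 MHC genes tested, 7 of them outside class II, 6 were at least 4-fold higher. B2m, the light chain of MHC class I, was at 1182 CPM against 286 and the class I heavy chain gene H2-K1 at 637 against 96.3. Of 6 interferon response genes 4 were at least 4-fold higher, with Bst2, which encodes the antiviral protein tetherin, at 1018 CPM against 181. In the lists of 12 immediate early, 7 heat shock, 10 cell cycle and 5 mesenchymal transition genes, none was 4-fold higher. Since 9.4% of all tested genes were that much higher, this absence says little of lists this short. The median log2 ratios of these 4 lists lay between -0.32 and -0.10, where that of all tested genes was 0.11.

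The endothelial cells were not uniform. Lymphatic genes were gathered in 2 cells, 1 per library, that held all 7 of the list, whereas no other cell held more than 2. Flt4, which encodes the VEGF-C receptor and is also found in sprouting blood vessels, was the common one, in 28 cells. The control cell (9751 UMIs) had 5 UMIs of Prox1, the lymphatic master transcription factor, 29 of Lyve1, a hyaluronan receptor, 12 of the chemokine gene Ccl21a, 15 of Mmrn1 and 9 of Reln. The iIRE cell (7049 UMIs) had 5 of Prox1, 5 of Lyve1, 121 of Ccl21a, 10 of Mmrn1 and 2 of Reln. Both lacked UMIs of Emcn, Esam, Cd93 and Vwf. Ccl21a has near-identical copies in the mouse genome between which reads can be split, so its counts are uncertain. The control cell also held all 130 UMIs of Nts, which encodes the peptide neurotensin, and the 69 cells gave no other.

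Genes of the arterial, venous and capillary lists were found in most cells, but some defining members were in few. At least 3 of 16 Notch and arterial genes were found in 50 of the 69 cells, at least 3 of 8 venous genes in 29 and at least 3 of 12 capillary genes in 60. Ackr1, the atypical chemokine receptor of venules, was found in 3 cells, with 26 UMIs in 1 control cell and with 1 and 7 UMIs in 2 iIRE cells. The same 3 cells held 27, 13 and 27 UMIs of Selp, which encodes the adhesion molecule P-selectin and was found in 12 cells. Gja4, the arterial gap junction gene, was found in 9 cells. None of these held Ackr1, which says little with only 3 Ackr1 cells among the 69. Gja5, another arterial connexin gene, had 0 UMIs. Vwf, which encodes von Willebrand factor, was found in 38 cells. Of the capillary list, Lpl, which encodes lipoprotein lipase, and the lysolipid transporter gene Mfsd2a had 0 UMIs.

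Cell cycle genes marked a small set of cells. Mki67, a proliferation marker, was found in 16 cells and Top2a, topoisomerase IIα, in 14, with both in 12. Of these 12 cells 5 carried tumor cell RNA, which leaves 3 control and 4 iIRE cells without it. At least 8 of 16 cell cycle genes were found in 13 cells, 7 of them without tumor cell RNA.

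**Figure D3:**
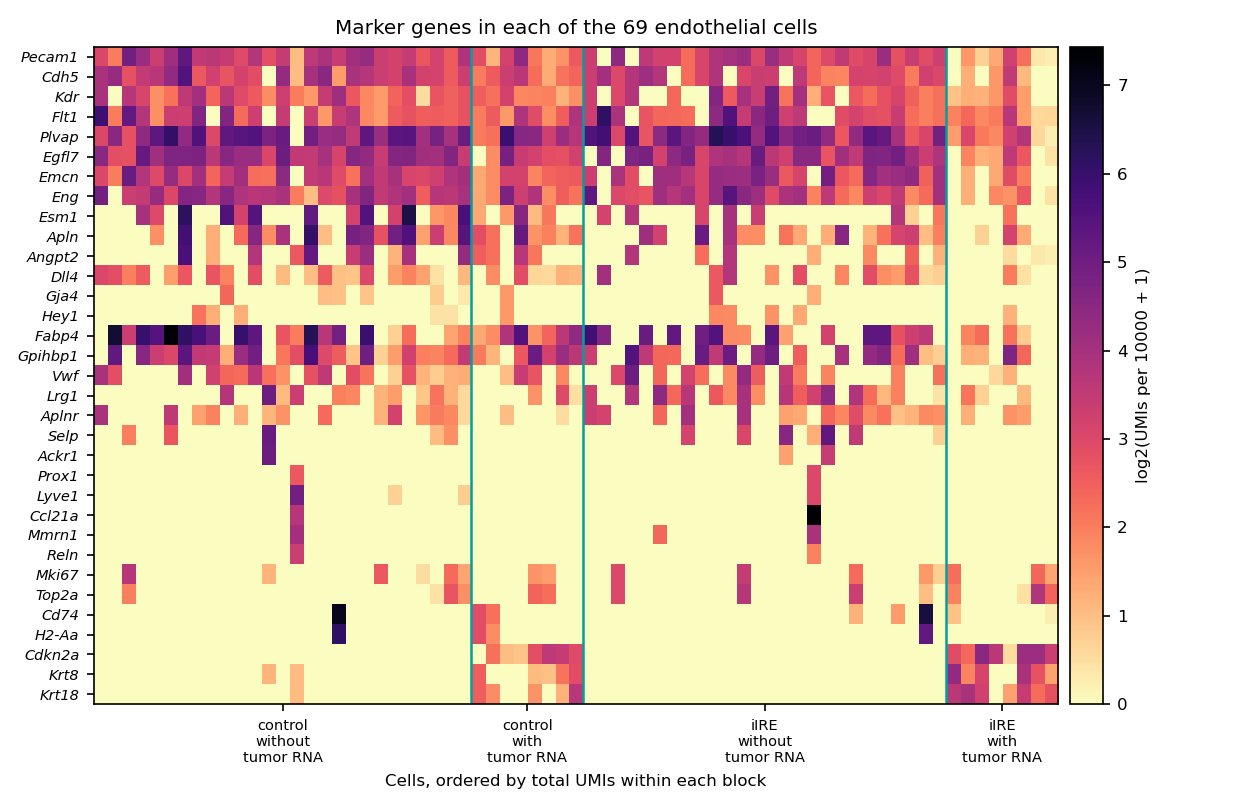
The color gives the depth-scaled level, in the log2 units of the color bar, for 33 genes (rows) in each of the 69 cells (columns), split by library and by tumor cell RNA and ordered by depth within each block. Lymphatic genes are gathered in 1 cell of each library, and Esm1, Apln and Angpt2 are darkest in a set of control cells. Cdkn2a and the keratins mark the cells with tumor RNA because these genes define them.

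Between the libraries, a lower level of some tip cell genes in iIRE was found both with and without the cells carrying tumor RNA. Of 2946 genes with at least 50 UMIs, 72 (2.44%) were at least 2-fold higher and 76 (2.58%) at least 2-fold lower in iIRE. Over the 53 cells without tumor RNA, 17 of 1770 (0.96%) were higher and 31 (1.75%) lower. Of 11 tip cell and sprouting genes 4 were at least 2-fold lower and none higher, with a median log2 ratio of -0.88, where that of all genes was -0.03. Over the 53 cells, 3 of 10 were lower, and the median was -0.48.

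Esm1 had the smallest ratio among genes detected in 20% or more of a library's endothelial cells, with 1547 CPM in control (689 UMIs, 19 of 35 cells) and 124 CPM in iIRE (47 UMIs, 9 of 34 cells). The log2 ratio was -3.53 (counting interval -4.09 to -3.21) over all cells and -3.11 without the cells with tumor RNA. Few cells held most of the transcript, since 2 control cells gave 405 of the 689 UMIs, and the cells of the libraries overlapped. Without the 2 highest cells of each library the log2 ratio was -3.21. The iIRE cells were shallower, with a median of 4339 UMIs against 9068 in control cells without tumor RNA, and after thinning to 1000 UMIs Esm1 was found in 34.3% of control and 17.6% of iIRE endothelial cells. In single cells, Esm1 reached 8889 CPM in control and 1499 CPM in iIRE, with at least 10 UMIs in 9 control and 2 iIRE cells.

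Angpt2, which encodes angiopoietin-2, the TIE2 ligand released by activated endothelium, was at 564 CPM in control and 66.2 CPM in iIRE, a log2 ratio of -2.91 (-3.75 to -2.49), and -2.37 over the 53 cells. Apln was at 1435 and 273 CPM, a log2 ratio of -2.35 (-2.71 to -2.09), and -1.91 over the 53 cells. The apelin receptor gene Aplnr stood at 135 and 151 CPM, a log2 ratio of 0.15, and 0.51 over the 53 cells. Other tip cell genes were closer, Dll4, the Notch ligand of tip cells, at -0.45 (0.26 over the 53 cells), Mcam, the adhesion molecule CD146, at -0.54 (-0.07) and Trp53i11 at -0.79 (-0.06). The lower level was thus seen in Esm1, Angpt2, Apln and, at low counts, Pgf, a VEGF family ligand (-1.43, -0.98 over the 53 cells), and not across the whole list.

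The cell that stood for a library's middle showed less of this than the sum did. Summed over the tip cell list, the level was 6014 CPM in control and 1861 CPM in iIRE, and 7091 against 3051 CPM without tumor RNA. The median cell had 2223 CPM in control and 1485 CPM in iIRE, but 2175 and 2208 CPM without tumor RNA. The highest cell had 28612 CPM in control and 10995 CPM in iIRE, and 12 control and 7 iIRE cells exceeded 5000 CPM. Without tumor RNA 11 control and 6 iIRE cells exceeded it, so that those libraries differed in the highest cells and hardly in the median cell.

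**Figure D4:**
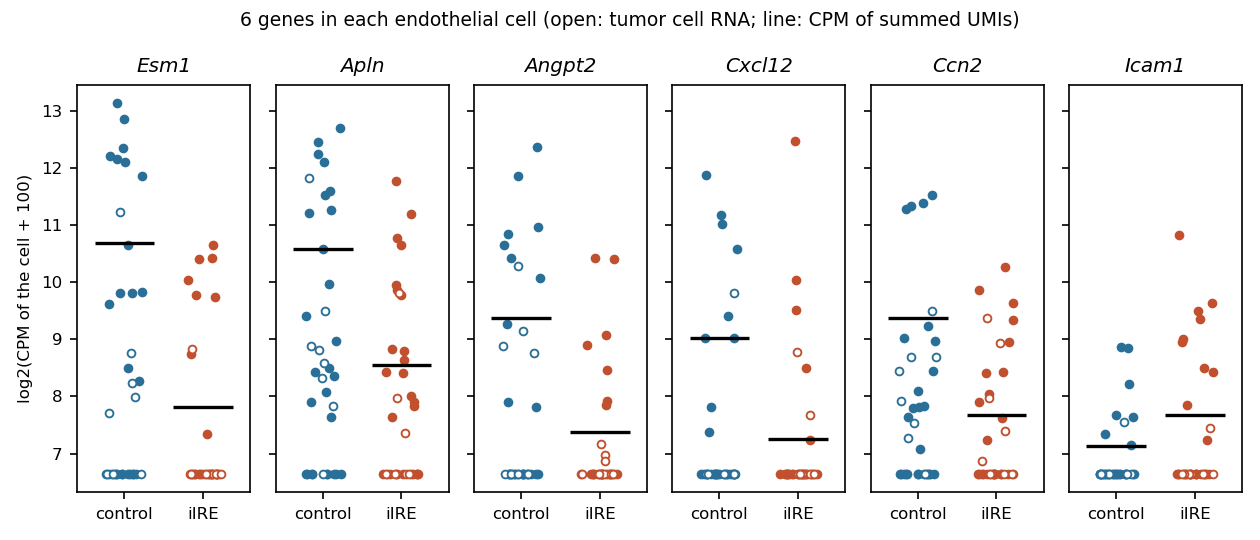
Each point is the level of a gene in 1 endothelial cell, as log2 of CPM after 100 was added, for control (blue) and iIRE (red), with open points for cells with tumor cell RNA and black lines for the CPM of the summed cells. Cells without a UMI form the lowest row of each panel, and the control cells reach higher for Esm1, Apln, Angpt2 and Ccn2, while the highest single value of Cxcl12 is an iIRE cell.

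Other genes lower in iIRE were of mixed function. Cxcl12, the chemokine that binds CXCR4, was at 422 CPM in control and 53 CPM in iIRE, a log2 ratio of -2.78 (-2.73 over the 53 cells), but it was found in 10 and 7 cells only, and 1 cell held 44.7% of its UMIs. When the mean of single-cell levels was taken in place of the sum, its log2 ratio was -0.50. Ccn2, a matricellular target gene of YAP and TGF-β signaling, had a log2 ratio of -2.35 (-2.44 over the 53 cells) and was found in 21 and 16 cells. Without the 2 highest cells of each library, Ccn2 was at -1.59 (-1.47 over the 53 cells) and Cxcl12 at -2.09. The 2 control cells highest in Esm1 also gave 156 of 252 control UMIs of Ccn2, 135 of 188 of Cxcl12 and 281 of 639 of Apln. The lower levels of these 4 genes thus rest in part on the same 2 cells. Ctla2a was at 2857 and 683 CPM (-2.05, and -1.21 over the 53 cells). The fatty acid binding protein genes Fabp5 (-1.68, -1.54) and Fabp4 (-1.58, -0.73) and the potassium channel gene Kcnq1 (-1.72, -0.99) were also lower, and without tumor RNA Fabp4 and Kcnq1 were within 2-fold. By the mean of single-cell levels, Ctla2a was at -0.68 and Kcnq1 at -0.37, both within 2-fold.

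Part of the lower endothelial signal in iIRE moved with tumor RNA. All 5 markers had negative log2 ratios over the 69 cells, from -1.09 for Cdh5 to -0.40 for Flt1, with Plvap at -0.87. Over the 53 cells they ran from -0.57 for Cdh5 to 0.24 for Flt1, with Plvap at -0.13. The rule selected the cells on these 5 genes, so their ratios depend on it and are description only. Of 9 members with 5 to 9 marker UMIs, 8 were in iIRE. The median of the 26 identity genes was -0.69 over the 69 cells, and 5 were at least 2-fold lower, whereas over the 53 cells it was -0.11 and none of 24 was. Cldn5, the tight junction gene of endothelium, was at -1.14 and -0.93, and Tek, which encodes TIE2, the angiopoietin receptor, at 0.39 and 0.81. Basement membrane genes had a median of -0.69 over the 69 cells and -0.28 over the 53, with Col4a1 at -0.65 and -0.27 and Sparc at -0.90 and -0.32. Fn1 went from 0.03 over all cells to -3.51 over the 53, where 374 control UMIs, 249 of them in 2 cells, stood against 16 in iIRE.

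Of the 8 genes with the largest ratios in iIRE over the 69 cells, 7 were at lower levels in the endothelial cells than in the other cells. The serine synthesis gene Phgdh (2.48), the chemokine gene Cxcl2 (2.43), Errfi1, an inhibitor of EGFR signaling (2.22), the nuclear import gene Kpna2 (2.05), the tubulin gene Tuba1c (2.01), the long noncoding RNA Pvt1 (1.95), the mitotic ubiquitin ligase gene Ube2c (1.91) and the chaperone gene Fkbp11 (1.88) were these 8, with Kpna2 the exception. Over the 53 cells they stood between 0.27 (Phgdh) and 1.84 (Cxcl2), and Phgdh kept 2 of its 92 UMIs. Of 7 heat shock genes 2 were at least 2-fold higher over the 69 cells, the chaperone genes Hspe1 (1.47) and Hsp90aa1 (1.03), and these were at 0.04 and -0.03 over the 53. Top2a (1.21) and Vegfa (1.27) likewise went to -0.05 and -0.29. These higher levels moved with the cells that carried tumor RNA, and the part of this RNA in each difference was not tested.

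Leukocyte adhesion genes differed among themselves in direction. Of 5 tested over the 69 cells, 1 was at least 2-fold higher in iIRE (Icam1) and 1 lower (Jam3). Jam3, a junctional adhesion molecule gene, was at -1.24, and -0.83 over the 53. Over the 53 cells 2 of 4 were higher (Icam1 and Selp) and none lower. Of all tested genes, 2.44% were that much higher and 2.58% lower over the 69 cells, against 0.96% and 1.75% over the 53. Icam1 had 57 UMIs in all, little above the minimum for a tested gene. Icam2, a constitutive adhesion molecule gene, was at -0.65 and -0.0083. Icam1, the endothelial ligand of leukocyte integrins, was at 40.4 CPM in control (8 cells) and 103 CPM in iIRE (11 cells), a log2 ratio of 1.17 (0.51 to 2.25) and of 1.84 over the 53 cells. Selp had log2 ratios of 0.63 and 1.28 from 5 control and 7 iIRE cells. Few cells held most of these UMIs, since 2 iIRE cells gave 22 of the 39 iIRE UMIs of Icam1 and 2 gave 40 of the 56 of Selp, while 1 control cell gave 27 of the 41 control UMIs of Selp. The venous gene Lrg1 was at -0.01 and 0.81, and Sox18 at -0.05 and 0.79. Ccl2, which encodes the ligand of CCR2, gave 0 UMIs in control and 15 in 6 iIRE cells, 3 of which carried tumor RNA. Apart from Ccl2, each of these genes was detected in cells of both libraries.

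Of the MHC class I pathway genes, 7 had at least 50 UMIs, and 2 of the 7 had log2 ratios above 0 over the 69 cells, with a median of -0.15. Over the 53 cells all 7 were above 0, with a median of 0.39 beside -0.03 for all genes. B2m was at -0.10 and 0.43, H2-K1 at -0.15 and 0.39, H2-D1, another class I heavy chain gene, at -0.65 and 0.03, and Psmb8, an immunoproteasome subunit, at 0.41 and 0.99. Of the interferon response genes, 3 of 6 were above 0 over the 69 cells and 5 of 5 over the 53, where their summed level was 5691 CPM in control and 7847 CPM in iIRE. Ifitm3, which encodes an antiviral membrane protein, was at 0.10 and 0.48, and Irf7, an interferon regulatory factor, at 0.37 and 0.72. None of these class I and interferon genes differed 2-fold over the 53 cells. The class II genes are left out here because 2 cells held nearly all of their UMIs.

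**Figure D5:**
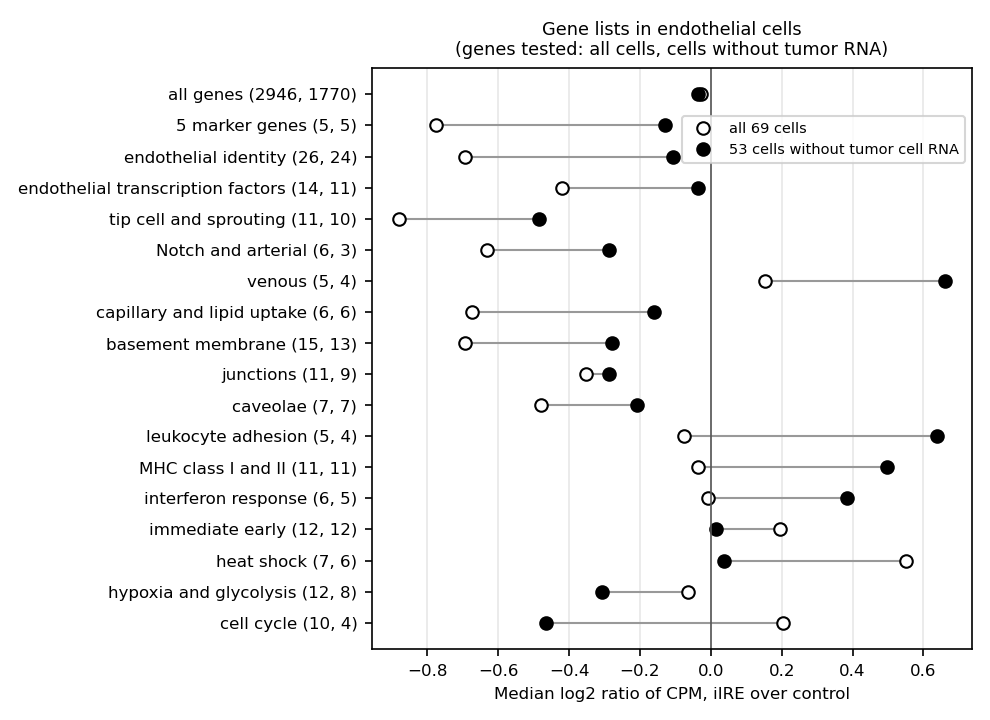
The median log2 ratio of CPM, iIRE over control, is given for the genes of each list over all 69 cells (open) and over the 53 cells without tumor RNA (filled), with the number of genes tested in parentheses. The tip cell list is lowest in both, at -0.88 over 69 and -0.48 over 53 cells. Over the 53 cells the cell cycle list, with 4 genes tested, is close to it at -0.46. The identity genes and markers lie near 0 without tumor RNA.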

How the data were processed

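Gene expression was measured by scRNA-seq in 1 control and 1 iIRE library of mouse pancreatic tumors. The deposited values are raw UMI counts per gene and barcode in 1 matrix for both libraries, which the authors produced in Cell Ranger with the STAR aligner and the mm10 genome. The header of the matrix names version 7.0.1, which differs from the version in the paper's methods. The deposited tables of barcodes and genes hold names, the other kind of value used, and the number that ends a barcode was taken as the library number in the labels, an inference that no source used here states. The counts were not normalized by the authors, and the matrix held no barcode under 500 UMIs. The matrix held 32285 genes and 18538 control and 19433 iIRE barcodes, with 247105192 and 222153118 UMIs, and the cells that passed had a median of 8549 and 6798 UMIs.

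Cells with at least 1000 UMIs, at least 200 genes and at most 5% mitochondrial UMIs were kept. UMIs were summed over the member cells of a library and divided by their total (CPM). Cells are not replicates, and with 1 library per group no test was run. Intervals are at 95%, Clopper-Pearson for shares, exact Poisson for CPM and exact conditional binomial for ratios. They cover counting error only, and UMIs bunched in few cells vary more than that. Log2 ratios were taken after 10 CPM was added, for genes with at least 50 UMIs in the endothelial cells. A gene was called at 2-fold between libraries and 4-fold over the other cells. Keratin tumor cells had at least 5 UMIs of Krt8 and Krt18 and a Cdkn2a UMI but no Ptprc, and host-type fibroblasts at least 20 UMIs of Dcn, Col1a1 and Col3a1 and no Cdkn2a. C1q macrophages had at least 0.1% C1q UMIs. All 3 classes had under 5 UMIs of the 5 markers.

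Named genes were the 5 markers, the 4 highest of each list by CPM, the 15 largest ratios over the other cells (detected in 30% or more of the cells), and the 8 largest and 8 smallest ratios between libraries (detected in 20% or more of a library's cells). The latter groups left out gene models and genes of mitochondria, ribosomal proteins, globins and antigen receptors. Pgf, Mcam, Erg, Adm, Slc2a1, Cldn5, Tek, Psmb8, Hspe1, Vegfa, Ccl2, Nts, Prox1, Reln, Gja4, Gja5, Ackr1, Mki67, Lpl and Mfsd2a were named after their values were seen. The members, the lists and the rule were chosen with earlier results of these data known. The calculations used Python 3.11.15, numpy 2.4.6, scipy 1.17.1, pandas 2.3.3, scikit-learn 1.9.0 and matplotlib 3.10.9, with edgeR 4.0.16 in R 4.3.3 for TMM factors only, and were tested on simulated data. Doublet scores came from simulated sums of cells, and 0.8% of cells per 1000 cells of a library were removed in that alternative only. The genotype of the implanted line is not reported here.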

Additional observations from a re-analysis of the deposited data

How the results depend on the processing

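Leaving out cells by doublet score left 16 control cells and a log2 share ratio of 0.74. Of 1892 genes then tested, 99 were higher and 121 lower in iIRE. The 72 genes higher and 76 lower, of 2946 tested, became 25 and 42 of 2496 with at least 10 marker UMIs. With at least 4 of the 5 markers they were 27 and 45 of 2485, and without the cells with tumor RNA 17 and 31 of 1770. Without the deepest cell of each library they were 31 and 41 of 2609. With a minimum of 20 UMIs per gene they were 202 and 186 of 6165. They became 21 and 38 of 1676 without the cells with tumor or leukocyte RNA, an alternative chosen after seeing the data, as were leaving out the lymphatic cells and the 2 highest cells of each gene. Fewer cells or another minimum changes the number of genes tested, and beyond that the cause was not tested. TMM factors, the median of ratios, 1 CPM added, a 10% mitochondrial limit and the further quality filters kept all 67 ratios of single genes within their counting interval. Most other alternatives kept fewer. Of the 67, 18 stayed within it without the cells with tumor RNA, 23 with at least 10 marker UMIs and 25 with at least 4 markers. By the mean of single-cell levels 26 stayed, with doublet scores removed 41, and without the deepest cell of each library 46. Without the C1q limit 66 stayed. Among named genes at least 2-fold apart over all endothelial cells, 3 turned sign without the cells with tumor RNA. These were Hsp90aa1 (-0.035), Top2a (-0.047) and Vegfa (-0.29). Without the cells with tumor or leukocyte RNA they stood at -0.17, -0.12 and -0.25, and Hspe1 turned too (-0.27). Genes less than 2-fold apart also turned without tumor RNA, such as Fn1 (0.03 to -3.51), Dll4 (-0.45 to 0.26) and Emcn (-0.40 to 0.31). Of the genes at least 2-fold apart, Top2a turned with at least 10 marker UMIs and with at least 4 markers (-0.75 and -0.72). So did the chemokine gene Cxcl1 (-1.18 and -1.22), which also turned without the deepest cells (-0.47). Esm1 ran from -4.25 to -2.58 and Apln from -3.08 to -1.47 over all alternatives, and Cxcl12 from -4.01 to -0.50. The count of 277 genes over the other cells stayed within 1.5 times. With 34 and 35 cells, low genes rest on few UMIs, and 1 library per group leaves the spread between tumors unmeasured. No paired analysis was possible because each group had 1 library.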

Other observations

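Further gene lists were counted in the same 69 cells. Of 11 junction genes tested, 4 were at least 4-fold higher than in the other cells, among them Esam and F11r, which encodes a junctional adhesion molecule (301.4 against 65.4 CPM). Between the libraries 2 were at least 2-fold lower in iIRE over the 69 cells and none over the 53 without tumor RNA, with medians of -0.35 and -0.29. Of 7 coagulation and vessel tone genes, 5 were 4-fold higher than in the other cells, with Procr, the endothelial protein C receptor, at 197 against 13.1 CPM and Vwf at 209 against 0.34 CPM. Their median between libraries was -0.83 over the 69 cells and -0.17 over the 53. Of 7 caveolae genes only Ehd4, an ATPase of endocytic membranes, was 4-fold higher, while Cav1, the main caveolar coat gene, was at 542 against 282 CPM. That count, and the 1 of 12 hypoxia genes below, is near the 9.4% of all tested genes and says nothing particular of these lists. Of 7 TGF-β and BMP genes, Eng and the BMP receptor gene Acvrl1 were 4-fold higher, and the list's median between libraries was -0.65 over the 69 cells and -0.17 over the 53.

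Among 12 hypoxia and glycolysis genes, only Adm, which encodes the vasoactive peptide adrenomedullin, was 4-fold higher in endothelial cells (152 against 13.9 CPM). The list's median between libraries was -0.06 over the 69 cells and -0.31 over the 53. The glucose transporter gene Slc2a1 had log2 ratios of -0.66 and -1.52. Of 5 leukocyte adhesion genes tested, 4 were 4-fold higher than in the other cells, including Icam2, a constitutive endothelial adhesion molecule, at 256 against 0.46 CPM. Sele, which encodes E-selectin, was found in 7 cells, and 6 of them also held Selp.

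Some genes outside the rule for named genes were picked after their values were seen. Over the 53 cells, the interferon-induced GTPase gene Ifi47 had a log2 ratio of 1.28, the class I-like gene H2-T23 of 1.23 and the peptide transporter gene Tap2 of 1.16, against 0.81, 0.42 and 0.81 over the 69. The thrombospondin gene Thbs1, an inhibitor of angiogenesis, was at -1.24 over both sets, and Angptl4, a regulator of lipoprotein lipase, at -1.55 over the 69 and -3.02 over the 53.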
